A study of Bubalus bubalis with 6 samples.

Results

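GFRA1, KDM3A and YTHDC2 are 3 genes of the male germ line, and their probes were followed here in sperm DNA of water buffalo (Bubalus bubalis) bulls. The members are the array probes that bear exactly one of these names, plus the unnamed probes that overlap the densest stretch of YTHDC2 probes on chromosome 10. That gave 26 of the 177440 probes for DNA on the array: 9 for GFRA1, 8 for KDM3A and 9 for YTHDC2, of which 20 carry a gene name and 6 are unnamed. YTHDC2 was selected on the difference between the fertility groups that an earlier reading of these same arrays gave. GFRA1 and KDM3A were chosen from germ-line genes because they kept enough measured probes to form a gene region.

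The series set 3 high-fertile bulls, called HF2, HF3 and HF5 in the labels, against 3 subfertile bulls, called SF1, SF4 and SF5, and asked where methylation of sperm DNA differs between them. From each bull's frozen semen, sheared DNA bound by an antibody against 5-methylcytosine (immunoprecipitated or IP DNA, dyed Cy5) was hybridised with the unselected input DNA of that bull (dyed Cy3) on an array of CpG island and promoter probes. The labels give no treatment, age or breed, and do not say how fertility was scored. Every value below is a log2(IP/input) with the median probe of its array set to 0: a positive ratio means more antibody-bound DNA than at that median probe, and it is no percentage of methylated cytosines. The labels name the bulls as separate animals, so errors are the spread over bulls.

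GFRA1 is the cell-surface co-receptor that binds GDNF, a growth factor from Sertoli cells, and hands the signal to the RET kinase; spermatogonial stem cells need it to renew themselves. KDM3A is a JmjC-domain demethylase that removes methyl groups from lysine 9 of histone H3, and round spermatids need it to switch on the genes that pack DNA into the sperm head. YTHDC2 is an RNA helicase with a YTH domain that recognises N6-methyladenosine, and germ cells need it to leave mitosis and go through meiosis. All 3 act before the sperm cell is finished, so a measurement on ejaculated sperm reads a mark left on the DNA and not the activity of the gene.

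The YTHDC2 result turns on 82 bases, chr10:1888717-1888798, covered by 8 overlapping probes of 60 bases. The bases are printed as the array files give them, with every CpG, the dinucleotide that carries most DNA methylation in mammals, in capitals.
YTHDC2 tile: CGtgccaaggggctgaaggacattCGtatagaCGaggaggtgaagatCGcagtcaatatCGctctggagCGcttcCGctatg
The tile holds 7 CpGs. Counted from the left, CpGs 2, 3 and 4 lie in all 8 probes, CpG 1 lies in 1 probe, and CpG 7 lies in 3. The next 4 lines show the outermost probe at each end with its nearest neighbour, since these pairs differ by 1 or 2 bases and yet read differently in the arrays.
YTHDC2 probe at 1888717: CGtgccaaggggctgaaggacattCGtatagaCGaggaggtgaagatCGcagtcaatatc
YTHDC2 probe at 1888718: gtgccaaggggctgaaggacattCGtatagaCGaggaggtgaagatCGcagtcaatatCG
YTHDC2 probe at 1888737: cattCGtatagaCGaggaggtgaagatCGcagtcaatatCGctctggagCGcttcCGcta
YTHDC2 probe at 1888739: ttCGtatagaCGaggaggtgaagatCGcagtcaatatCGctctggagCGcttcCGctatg

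The GFRA1 probes are spread from 37094461 to 37098803 on chr26 and the KDM3A probes from 50112423 to 50172574 on chr11. For each gene 2 probes are shown because they carry the most CpGs among its measured or nearly measured probes.
GFRA1 probe, chr26:37096148-37096207: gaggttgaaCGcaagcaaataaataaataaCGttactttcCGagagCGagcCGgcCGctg
GFRA1 probe, chr26:37097314-37097373: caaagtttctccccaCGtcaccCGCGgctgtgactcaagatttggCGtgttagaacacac
KDM3A probe, chr11:50168815-50168874: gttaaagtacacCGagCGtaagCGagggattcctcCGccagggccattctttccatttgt
KDM3A probe, chr11:50169010-50169069: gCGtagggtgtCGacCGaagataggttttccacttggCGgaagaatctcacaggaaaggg
The genome build and the strand are not given in the sources used here. Chromosome numbers and coordinates are therefore those of the probe names and were not placed on a buffalo assembly. CpG counts are those of the probe sequences, which were not compared with buffalo DNA. The files assign no exon, intron or promoter to a probe.

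A probe counted as measured when its input signal was well above background in all 6 bulls and neither channel was flagged as uneven. Of the 26 member probes 15 were measured: 3 of GFRA1, 4 of KDM3A and 8 of YTHDC2, against 110686 on the whole array. The ninth YTHDC2 probe, at 1887608, was well above background in neither channel in any bull and has no usable ratio. Input DNA was well above background at 69.0% to 95.5% of all probes and IP DNA at 37.6% to 85.2%. By the scan dates in the headers, the arrays of HF2, HF3 and SF4 form a first session and those of HF5, SF1 and SF5 a later one, in which SF1 had a date of its own. SF1 shares the slide of the first-session arrays, and HF5 and SF5 lie on the other slide. After centring, measured probes had medians of -0.33 to -0.26 in the first session and -0.10 to -0.01 in the later one, so session values are printed beside each result. With 6 arrays, their number limits the precision of everything that follows.

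The YTHDC2 tile carried less antibody-bound DNA than the median probe in all 6 bulls. Averaged over its 8 probes, the ratio was -1.28, -1.30 and -0.89 in HF2, HF3 and HF5. It was -0.32, -0.54 and -0.62 in SF1, SF4 and SF5. SF1 lay nearest the array median, and HF2 and HF3 lay farthest below it. Over all bulls the mean was -0.82 ± 0.40 (SD, n = 6), with an SE of 0.11 in the limma fit and an adjusted p of 0.0015 (2-sided, Benjamini-Hochberg over 9463 runs of neighbouring probes). An exact 2-sided sign-flip permutation test over the 6 bulls gave p = 0.03125, which is the smallest that 6 bulls can give. The limma SE rests on the spread within the groups (pooled SD 0.20). So does the error of the group contrast on which the tile was picked. Both tests use the same ratios as that contrast, so neither is independent of the choice. With normexp background correction the mean was nearer the array median, at -0.32 (SE 0.05, limma adjusted p = 0.008). A ratio below the median, of whatever size, is common on this array: limma called 24.2% of runs lower than the median. In all 6 bulls 29.5% of runs lay below it, and the median run had a ratio of -0.15. Among measured probes with the same number of CpGs, the means of the tile's probes lay between percentile 1.8 (probe at 1888735) and percentile 33.3 (probe at 1888718).

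In high-fertile bulls the tile had a mean of -1.16 ± 0.23 (SD, n = 3), and in subfertile bulls -0.49 ± 0.16 (SD, n = 3). The groups did not overlap, and the difference, high-fertile minus subfertile, was -0.67 (SE 0.22). This contrast is the one on which the tile was picked, so it is given as a description with no test; 1.65% of all runs were as cleanly separated with the high-fertile bulls lower, and the median run differed by -0.12. Within the first session the difference was -0.75 (HF2 and HF3 against SF4), and within the later session -0.43 (HF5 against SF1 and SF5). Each session has a single bull on one side. With the session as a block in the fit the difference was -0.59 (SE 0.18). Leaving out 1 bull at a time left it between -0.80 and -0.58. Another background correction (normexp on the raw signals) brought it to -0.19 (SE 0.11). At the single tile probe with IP signal well above background in all 6 bulls, the one at 1888718, the difference was -0.07.

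**Figure D1:**
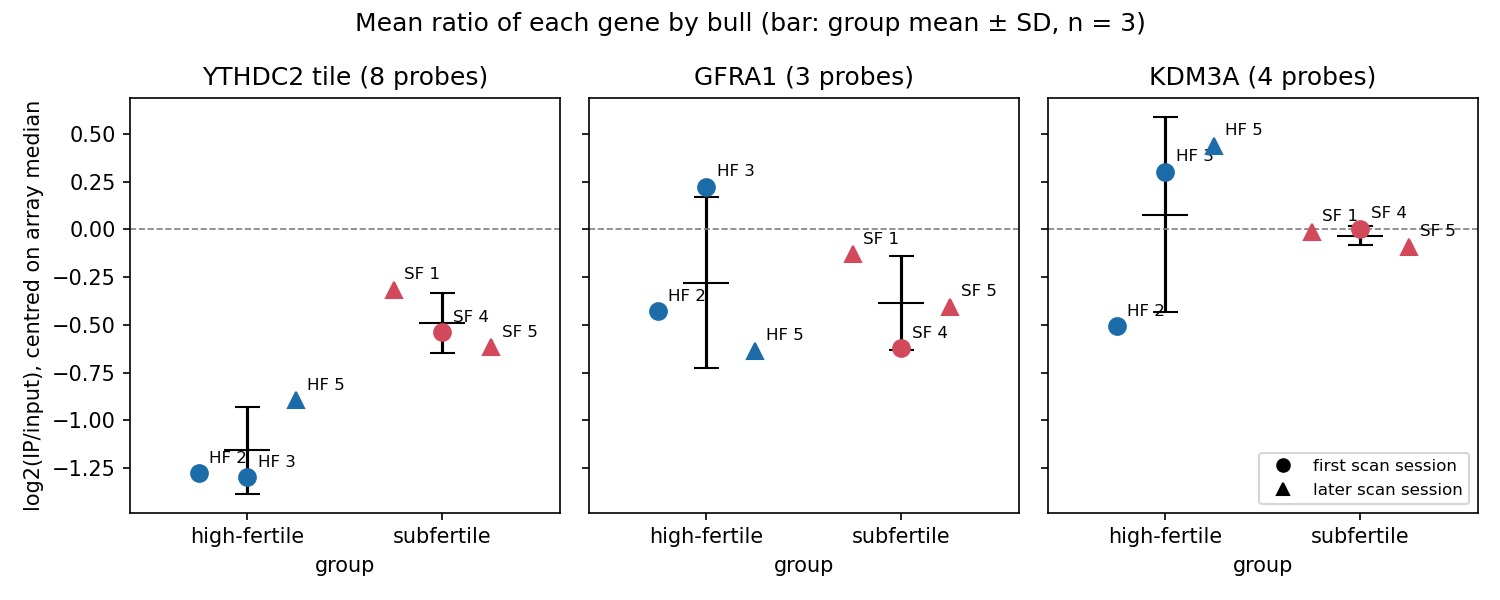
Mean log2(IP/input), centred on the array median, of the YTHDC2 tile, GFRA1 and KDM3A in each bull (HF: high-fertile, SF: subfertile), with circles for the first scan session, triangles for the later one, and bars for the group mean ± SD (n = 3). In the YTHDC2 panel the high-fertile bulls lie between -1.30 and -0.89 and the subfertile bulls between -0.62 and -0.32, while the groups overlap in the GFRA1 and KDM3A panels.

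The gap between the groups was wider in the IP channel than in the input channel. On the log2 scale, each channel set to its own array median, IP signal over the tile was -0.43, -0.98 and -0.71 in HF2, HF3 and HF5. It was -0.34, -0.30 and -0.11 in SF1, SF4 and SF5. The group means differed by -0.45. IP signal is the numerator of the ratio on which the tile was picked, so this gap is a description only. Input signal over the tile was 0.66, 0.25 and 0.11 in HF2, HF3 and HF5 and -0.08, 0.20 and 0.30 in SF1, SF4 and SF5. The input groups overlapped, with a difference of 0.20 in the opposite direction, so the ratio contains some of both channels.

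Many IP signals over the tile were dim. Of the 8 probes, the IP signal was well above background at 2, 2 and 8 in HF2, HF3 and HF5 and at 8, 3 and 8 in SF1, SF4 and SF5. The count was low in the 3 bulls of the first session and complete in the 3 of the later session. In all, 12 of 24 spots in high-fertile and 19 of 24 in subfertile bulls passed. The session itself moved the tile by 0.23 (later minus first, SE 0.18, limma adjusted p = 0.331), in an array where 37.0% of runs were called between sessions; with normexp correction the sign turned (-0.11). The session calls rest on the fit: with the slide as a block 224 of the 9463 runs and none of the gene regions or probes were called, and without HF5 489 runs were. The group difference changed between sessions by 0.32 (SE 0.37), given without a test because it derives from the same contrast.

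The 8 probes of the tile share 55 to 59 of their 60 bases with the next, so they are repeated readings of one piece of DNA rather than independent sites. They did not read alike. In HF2 and HF3 the probes ran from -2.35 to -0.19 and from -2.52 to -0.17, and in HF5 from -1.44 to -0.27. Subfertile bulls 1, 4 and 5 had ranges of -0.86 to -0.10, -1.16 to 0.36 and -1.16 to -0.28. The spread over probes (SD) was 0.89 and 0.79 in HF2 and HF3 and 0.57 in SF4, against 0.41, 0.25 and 0.32 in HF5 and SF1 and SF5. The 3 bulls with the widest spread are those of the first session, where IP signals were dimmest.

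The group difference was uneven over the probes, and so was the brightness of their IP spots. At the 5 probes with differences of -1.22 to -0.96, the IP signal was well above background in 1 high-fertile bull, HF5, and in 2 or 3 subfertile bulls. At the 3 probes with differences of -0.07 to 0.04, it was so in 2 or 3 high-fertile bulls and in 2 or 3 subfertile bulls. The part of dim IP spots in the group difference was not tested. At the probe at 1888717, HF2, HF3 and HF5 had ratios of -1.32, -1.20 and -1.22 and SF1, SF4 and SF5 had -0.38, -0.12 and -0.36. The probe at 1888718 is shifted by 1 base: it lacks CpG 1, gains CpG 5, and shares 59 bases. Its ratios were -0.19, -0.36 and -0.74 in HF2, HF3 and HF5 and -0.11, -0.04 and -0.94 in SF1, SF4 and SF5. The groups were apart at the first of these probes by -0.96 and overlapped at the second, where they differed by -0.07. At the other end of the tile, the IP signal of the probe at 1888737 was well above background in neither HF2 nor HF3. There the high-fertile bulls had -1.12, -2.52 and -0.93 and the subfertile bulls -0.37, -0.37 and -0.82, a difference of -1.01 without overlap. At the probe at 1888739, which holds the same 6 CpGs and was well above background in HF2 too but not in SF4, the high-fertile bulls had -0.30, -1.49 and -1.22 and the subfertile bulls -0.86, -0.95 and -1.16. The groups overlapped there and their means differed by -0.01.

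Across the tile the difference was negative at 7 of 8 probes, and the groups did not overlap at 3 of them, those at 1888717, 1888735 and 1888737; on the whole array 3.20% of probes were separated that way. The probe at 1888735 differed by -1.22, with IP signal not well above background in HF2, HF3 and SF4. Its ratios were -2.12, -1.96 and -1.44 in HF2, HF3 and HF5 and -0.21, -1.12 and -0.53 in SF1, SF4 and SF5. The probes at 1888726 and 1888730 differed by -0.99 and -1.12, but their groups overlapped because HF5 (-0.27 and -0.39) lay among the subfertile bulls. The probe at 1888722 differed by 0.04. From the 6 unnamed probes alone the difference was -0.56 (SE 0.23), a comparison chosen after the data were seen. These probes overlap the named ones and belong to the tile picked on this contrast, so the value is no separate support for it.

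**Figure D2:**
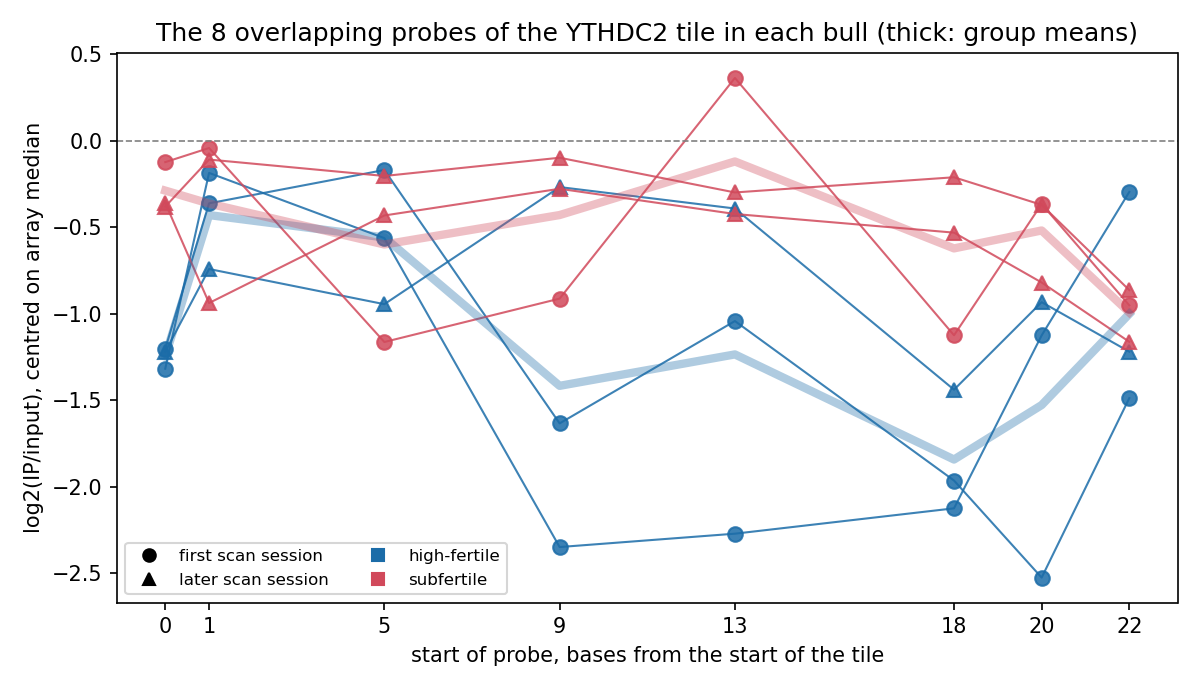
Centred log2(IP/input) of the 8 overlapping YTHDC2 probes (vertical axis) against the start of each probe in bases from the start of the tile (horizontal axis), 1 line per bull, blue for high-fertile and red for subfertile, with thick lines for the group means. The group means are close at the probes 1, 5 and 22 bases in, where they differ by -0.07, 0.04 and -0.01, and differ by -1.22 at the probe 18 bases in, whose IP signal was well above background in 1 high-fertile and 2 subfertile bulls.

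The low level of the tile was found over most of its length. It is not the contrast on which the tile was picked, but it averages the same ratios. Its limma tests also share the error of that contrast. Means over the 6 bulls ran from -1.23 to -0.40 along the 8 probes, and 5 of the 8 were called lower than the array median by limma, where 15.0% of all measured probes were. At 7 of the 8 every bull was below the median, as at 21.9% of measured probes; the exception was the probe at 1888730, with 0.36 in SF4. Since the probes overlap, these counts describe one place.

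How the ratio of measured probes ran with their number of CpGs differed between the sessions. In the first session the median was lower with 4 CpGs than with none: -0.41 against -0.08 in HF2, -0.35 against 0.09 in HF3 and -0.34 against -0.01 in SF4. In the later session it was higher with 4 CpGs than with none: -0.04 against -0.10 in HF5, -0.03 against -0.08 in SF1 and -0.14 against -0.16 in SF5. With 6 CpGs it was lower than with none in all 6 bulls. The tile's probes hold 4 to 6 CpGs.

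**Figure D3:**
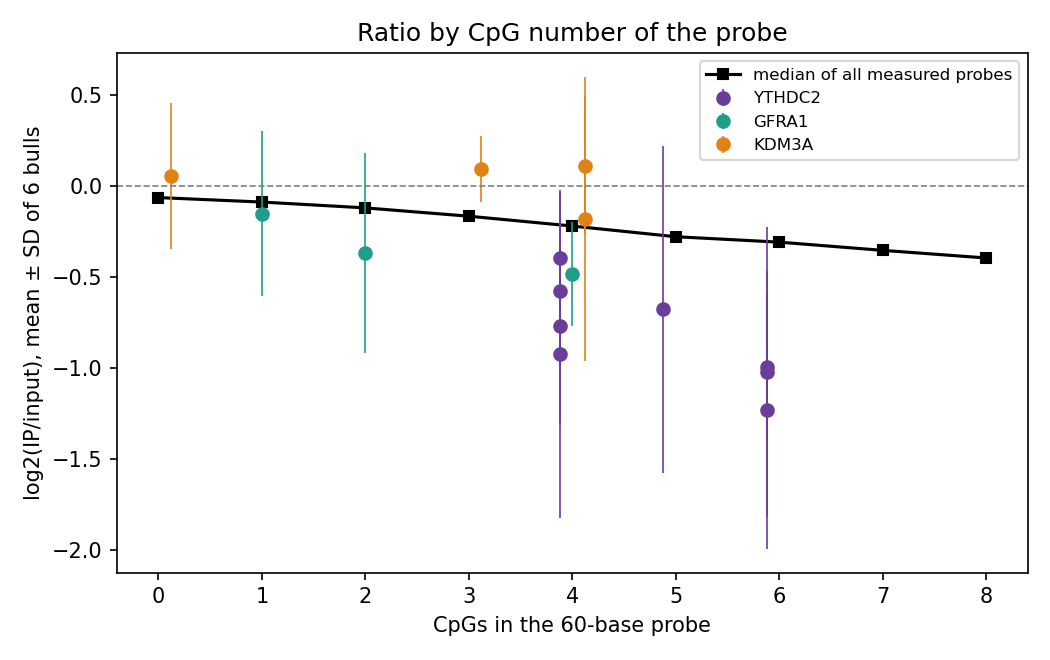
Mean centred log2(IP/input) over 6 bulls (± SD) of each measured probe of YTHDC2, GFRA1 and KDM3A against its number of CpGs, with black squares for the median of all measured probes of that CpG number. YTHDC2 probes have means of -1.23 to -0.40, GFRA1 probes of -0.48 to -0.15 and KDM3A probes of -0.18 to 0.11; the squares average both sessions.

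GFRA1 lay somewhat below the array median and did not differ between the groups beyond the spread of the bulls. Its gene region is the mean of 3 measured probes, at 37094461, 37096844 and 37097314 on chromosome 26, with 1, 2 and 4 CpGs. The ratio was -0.43, 0.22 and -0.64 in HF2, HF3 and HF5 and -0.13, -0.62 and -0.41 in SF1, SF4 and SF5. HF3 was the single bull above the median, and the groups overlapped. The means were -0.28 ± 0.45 and -0.39 ± 0.25 (SD, n = 3 each), a difference of 0.11 (SE 0.27, 95% interval -0.52 to 0.73, limma adjusted p = 0.99986 over 737 gene regions). No gene region on the array passed this test in limma (0% called), and 6 had an unadjusted p under 0.05. The interval reaches from a lower to a higher level in high-fertile bulls, so a difference of either sign and of more than 0.5 lies inside it.

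The sign of the GFRA1 difference rests on single bulls and on the processing. Without HF3 it was -0.15, and without SF4 -0.01; it was -0.15 with normexp correction and -0.11 with no filter on input. It was 0.52 within the first session and -0.37 within the later one, and the test of that change (interaction -0.89, SE 0.47, limma adjusted p = 0.994) did not pass, nor did it for any other gene region (0% called). Over all 6 bulls the ratio averaged -0.33 ± 0.33 (SD, n = 6; limma adjusted p = 0.113; exact sign-flip permutation p = 0.09375), where 20.1% of gene regions were called lower and the median gene region had -0.18. Without HF3 the average was -0.46 with a limma adjusted p of 0.041, with normexp correction -0.33 with one of 0.023, and with no filter on input 0.23. Gene regions called in either direction numbered 127 without HF3 and 286 with normexp, against 155 in the reported fit. Between sessions GFRA1 moved by -0.09 (SE 0.26, limma adjusted p = 0.822), where 20.8% of gene regions were called, and by 0.28 with the slide as a block.

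The 3 GFRA1 probes differed in how steady they were. The probe at 37097314, with the most CpGs, was below the median in all 6 bulls: -0.77, -0.17 and -0.80 in HF2, HF3 and HF5 and -0.14, -0.56 and -0.45 in SF1, SF4 and SF5. Its mean of -0.48 ± 0.29 (SD, n = 6) had a limma adjusted p of 0.060 over all measured probes. The probe at 37096844 ranged from -1.03 in HF5 to 0.39 in HF3. The probe at 37094461 lay near the median in HF5 (-0.08) and SF1 and SF5 (0.02 and 0.08). It was at -0.62 in HF2, 0.44 in HF3 and -0.75 in SF4, so the wide values are those of the first session. The other 6 named GFRA1 probes failed the input filter: 3 passed in 5 bulls, 1 in 3 bulls and 2 in none.

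Unnamed probes near the named ones filled in the picture. From 500 bases before the first named GFRA1 probe to 500 bases past the last there were 43 unnamed probes, 25 of them measured. Of these 25, 2 were called lower than the median. These were the probe at 37096709 (mean -0.59, limma adjusted p = 0.030) and the probe at 37096850 (mean -0.54, limma adjusted p = 0.039), the latter overlapping the named probe at 37096844. The share, 2 of 25, is below the 15.0% of all measured probes. Some 500 bases before them, the 6 overlapping probes from 37096147 to 37096167, each with 6 or 7 CpGs, had means of -0.01 to 0.80. None of these 6 passed the test against the median. The first of them, which differs by 1 base in position from the printed GFRA1 probe at 37096148, had -0.77, 1.69 and 1.21 in HF2, HF3 and HF5 and 1.39, 0.21 and 1.08 in SF1, SF4 and SF5. Its IP signal was not well above background in HF2 and SF4, the bulls with its lowest ratios. One neighbour, at 37096721, was lower in the later session (difference -1.17, limma adjusted p = 0.033), where 8.08% of measured probes were called between sessions.

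Taken as runs of neighbouring probes whatever their name, the locus had 2 stretches. The run from 37094457 (8 probes) had a mean of -0.16 and the run from 37096147 (20 probes) one of -0.13. Both are close to the median run at -0.15. High-fertile minus subfertile they differed by -0.14 (SE 0.26) and -0.03 (SE 0.25), opposite in sign to the 3 named probes and as small against their errors.

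**Figure D4:**
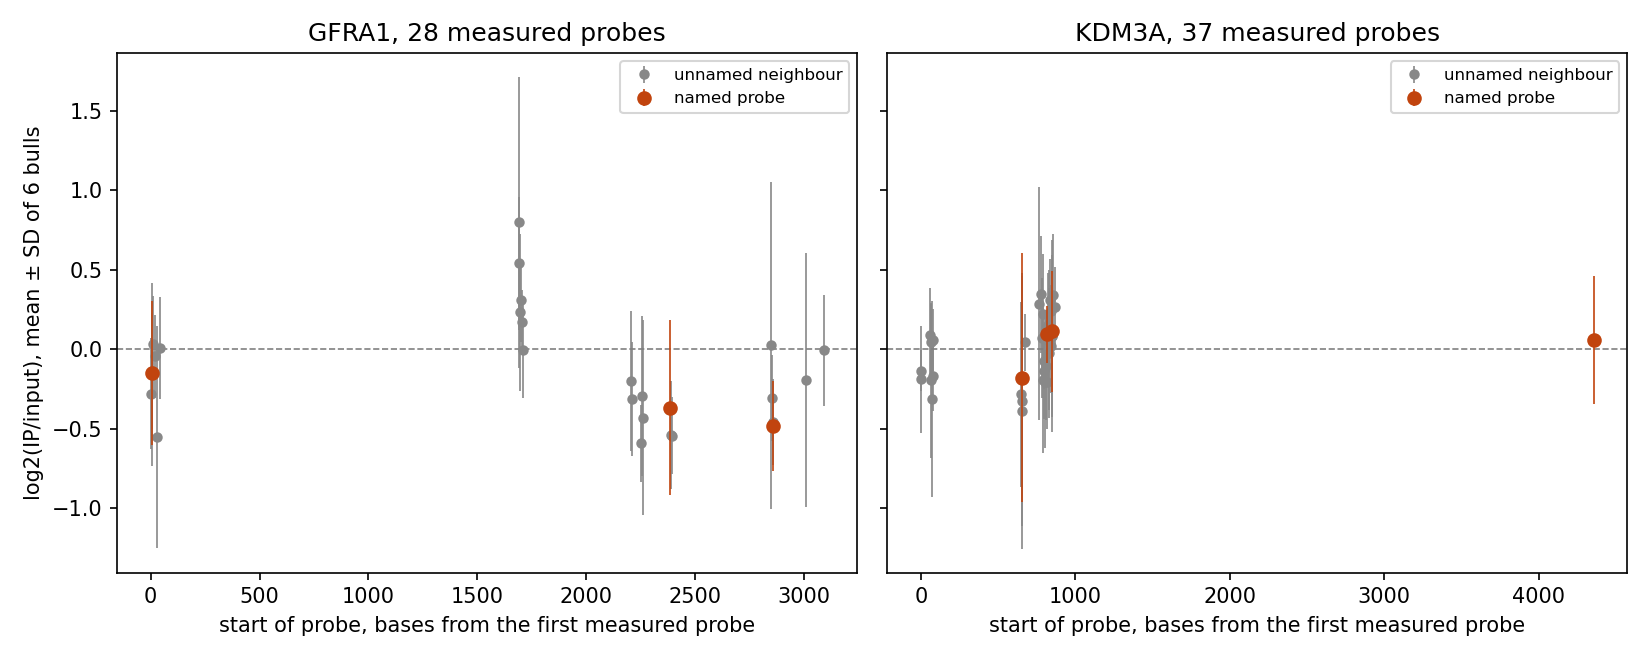
Mean centred log2(IP/input) over 6 bulls (± SD) of each measured probe, by distance in bases from the first measured probe. Probes run from 500 bases before the first named GFRA1 or KDM3A probe to 500 bases past the last. Named probes are orange and unnamed ones grey. GFRA1 has its highest values (0.80 and 0.54) in a cluster a little right of the centre and lower ones beyond it, and KDM3A probes stay between -0.39 and 0.35.

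KDM3A sat at the array median and did not differ between the groups beyond the spread of the bulls. Its gene region is the mean of 4 measured probes, at 50168815, 50168975, 50169010 and 50172515 on chromosome 11. The ratio was -0.51, 0.30 and 0.44 in HF2, HF3 and HF5 and -0.01, 0.0036 and -0.09 in SF1, SF4 and SF5. The subfertile bulls fell within the range of the high-fertile bulls, which were spread more widely (SD 0.51 against 0.05). The means were 0.08 and -0.03, a difference of 0.11 (SE 0.28, 95% interval -0.51 to 0.73, limma adjusted p = 0.99986). Without HF3 the difference was -0.0014, and without HF5 -0.07. It was -0.11 within the first session and 0.49 within the later one (interaction 0.60, SE 0.51, limma adjusted p = 0.994).

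Over all 6 bulls KDM3A averaged 0.02 ± 0.33 (SD, n = 6; limma adjusted p = 0.921; exact sign-flip permutation p = 0.969). It was above the median in 3 bulls and below it in 3. Its session difference was 0.24 (SE 0.25, limma adjusted p = 0.514), and without HF5 it was -0.06. With no filter on input, which adds the 4 probes that failed it, it turned to -0.77 and was called (limma adjusted p = 0.0216). In that setting 1599 of 2791 gene regions were called between sessions. The wide spread among high-fertile bulls came mostly from the probe at 50168815, printed above, with 4 CpGs. That probe had -1.68, 0.49 and 0.38 in HF2, HF3 and HF5 and -0.09, -0.13 and -0.04 in SF1, SF4 and SF5. A single value, that of HF2, stood far from the rest, and its IP signal was not well above background. The overlapping probes at 50168975 and 50169010 had means of 0.09 ± 0.18 and 0.11 ± 0.38 (SD, n = 6). The probe at 50172515, which holds no CpG, had IP signal well above background in none of the high-fertile bulls and in 1 subfertile bull, so no fold is given for it. It still enters the mean of the gene region, and so its group difference. At 50168815, 50168975 and 50169010 the high-fertile minus subfertile differences were -0.19, 0.02 and 0.20.

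Of the 4 KDM3A probes that failed the input filter, 3 lie far from the others, at 50112423, 50132053 and 50143398. Input was well above background in 3, 3 and 1 of the 6 bulls there, and these probes hold 1, 0 and 0 CpGs. The remaining one, at 50168930, lies among the measured probes and passed in 4 bulls. From 500 bases before the first named KDM3A probe to 500 bases past the last there were 46 unnamed probes, 33 of them measured. None of the 33 was called in limma against the median or between sessions. Their means ran from -0.39 to 0.35, with a median of 0.04. The run of 28 probes from 50168807 had a ratio of -0.50, 0.18 and 0.21 in HF2, HF3 and HF5 and 0.13, -0.06 and 0.18 in SF1, SF4 and SF5. HF2 was again lowest, and the group difference of -0.12 (SE 0.25) had the opposite sign to that of the 4 named probes. The other run, of 8 unnamed probes from 50168159, had a mean of -0.10 and a group difference of 0.02 (SE 0.22).

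Some sequences occupy 2 spots, one under the gene name and one unnamed, which shows how well a single spot can be read. The KDM3A probe at 50168815 had a twin whose ratio in HF3 was -0.66 against 0.49 for the named spot, the largest gap of that pair. In HF2 the twin read -1.98 against -1.68, but the IP signal of HF2 was not well above background at either spot. At the twin it was not so in HF3 or SF4 either. The group difference was -0.19 from the named spot and -0.76 from its twin. For the GFRA1 probe at 37094461 the twins had means of -0.15 and -0.14 over the 6 bulls, and group differences of 0.13 and -0.06. The KDM3A probe at 50168975 gave 0.02 and 0.17. Differences of this size between identical sequences are at least as large as the GFRA1 and KDM3A group differences.

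The 3 genes did not share a pattern over the bulls. Pearson's r over the 6 bulls was 0.16 between GFRA1 and KDM3A, -0.29 between GFRA1 and the YTHDC2 tile, and 0.05 between KDM3A and the tile, given as a description. A ratio also carries the brightness of its own probes, so the levels of the 3 genes are not ranked against each other.

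The gene regions most like each gene over the 6 bulls were taken by the highest r among all gene regions. For GFRA1 they were ZFP36L1 (r = 0.94), DMRTA2 (0.93) and ADRA2A (0.92), each highest in HF3. For KDM3A they were YBX1 (0.97), PLXNC1 (0.96) and ADRA1D (0.94), each lowest in HF2. For the YTHDC2 tile they were EIF3B (0.98), C23H6orf141 (0.93) and MED22 (0.92). EIF3B, part of the eIF3 complex that loads ribosomes onto messenger RNA, had -1.45, -1.38 and -1.09 in HF2, HF3 and HF5 and -0.64, -0.81 and -0.74 in SF1, SF4 and SF5. Values of r above 0.9 were not rare with 6 points: 7 gene regions reached them for GFRA1, 7 for KDM3A and 9 for the tile. The likeness is a description, and the arrays share their sessions.

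Few of the genes that work with these 3 could be measured. Of 36 genes of GDNF signalling and spermatogonia, 18 had a named probe and 5 had the 3 measured probes needed for a gene region. None of these 5, GFRA1 among them, was called between the fertility groups or against the median. Their median difference was 0.11 against -0.08 over all gene regions, and that 0.11 is the value of GFRA1 itself. GDNF itself, the ligand of GFRA1, had -0.14, -0.04 and 0.16 in HF2, HF3 and HF5 and 0.14, -0.04 and 0.18 in SF1, SF4 and SF5, a difference of -0.10 (SE 0.21). The transcription factors LHX1, which GDNF induces in spermatogonia, and EOMES, found in a subset of these cells, differed by 0.15 (SE 0.21) and 0.27 (SE 0.23). The groups overlapped for all 3 of these genes.

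Among 40 JmjC demethylase and spermatid chromatin genes, 15 had a named probe, and KDM3A and EHMT1 were the 2 gene regions. EHMT1, one of the enzymes that place the methyl groups on histone H3 lysine 9 that KDM3A takes off, had -0.35, -0.99 and -0.50 in HF2, HF3 and HF5 and -0.46, -0.21 and -0.49 in SF1, SF4 and SF5. Its mean of -0.50 was called lower than the median (limma adjusted p = 0.023), and its group difference of -0.23 (SE 0.24) was not called. The list's median difference, drawn from KDM3A and EHMT1 alone, was -0.06, against -0.08 over all gene regions.

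Of 46 YTH reader, N6-methyladenosine and meiosis genes, 25 had a named probe and 4 formed a gene region, without YTHDC2, whose named probes were too few. None was called between the fertility groups, with a median difference of -0.05. XRN1, an exonuclease that binds YTHDC2 protein, had -0.64, -0.68 and 0.11 in HF2, HF3 and HF5 and 0.07, -0.01 and 0.07 in SF1, SF4 and SF5. The low values were those of both first-session high-fertile bulls, and the difference of -0.45 (SE 0.26) did not pass (limma adjusted p = 0.99986). YTHDF1, a cytoplasmic reader of the same RNA mark, differed by 0.11 (SE 0.22) and IGF2BP3, another binder of marked RNA, by -0.07 (SE 0.27). IGF2BP3 lay at -0.97 against the median with a limma adjusted p of 0.006.

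Imprinted genes served as a check of the sperm label, since paternal marks are methylated and maternal marks unmethylated in sperm. Of 6 paternally and 13 maternally marked genes, 2 and 3 formed gene regions. The paternally marked genes RASGRF1 and RTL1 had means of -0.16 and 0.08, and the maternally marked genes SGCE, PEG10 and IGF2R had -0.75, 0.02 and 0.28. SGCE was called lower than the median (limma adjusted p = 0.006). The levels did not sort by mark, and the files do not say whether these probes lie in the imprinted intervals, so the check is not decisive for the cells.

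**Figure D5:**
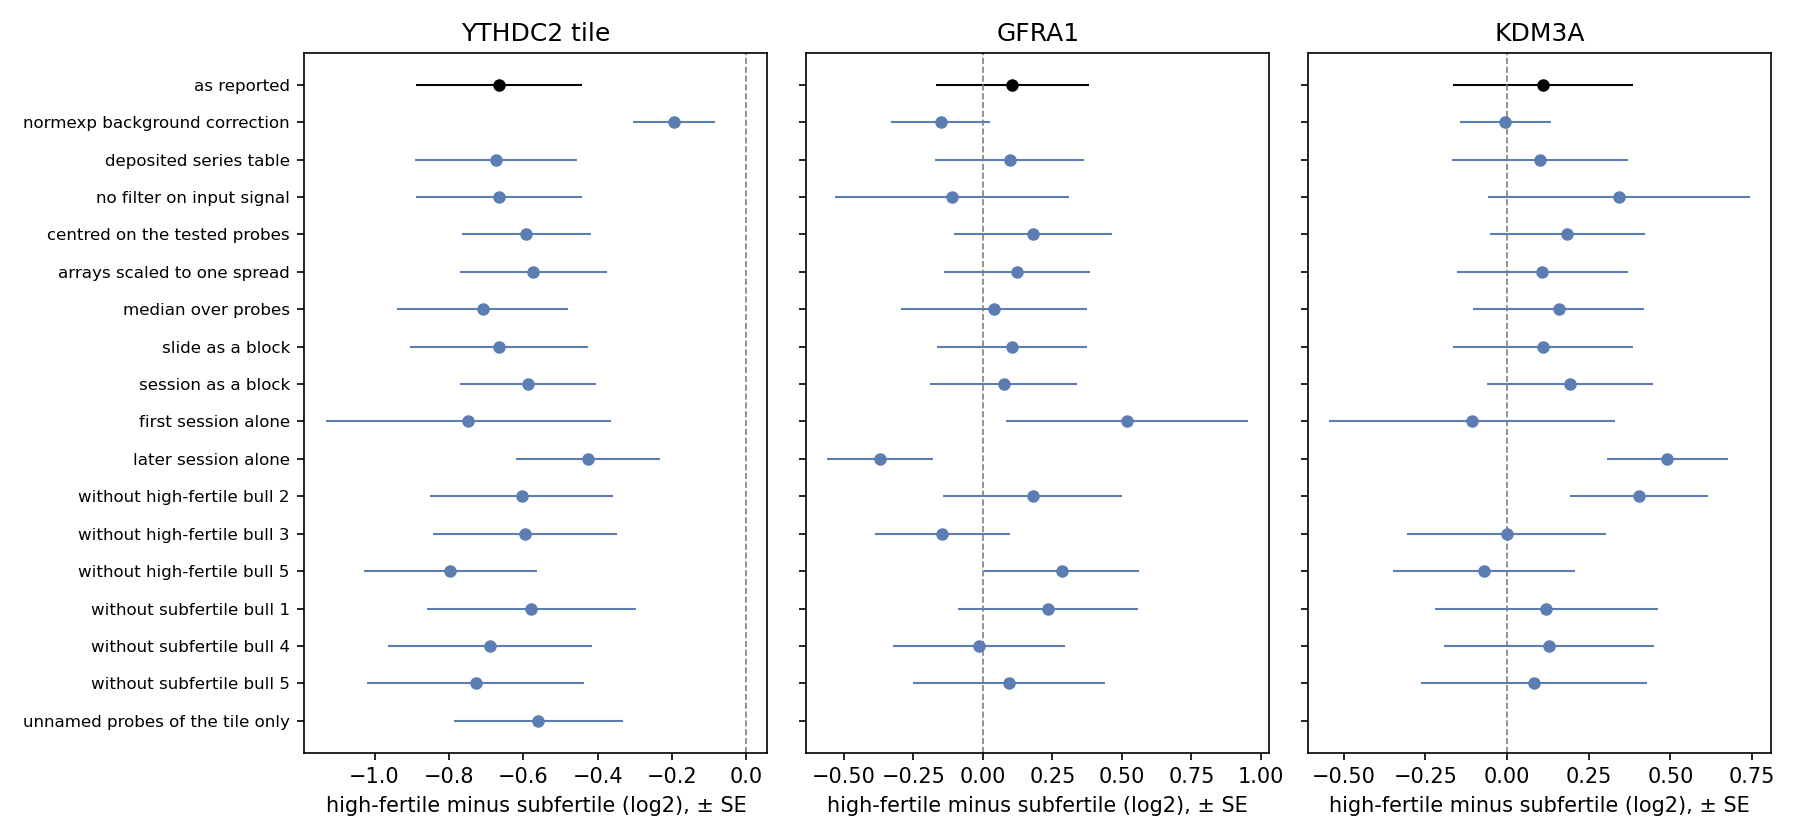
High-fertile minus subfertile difference in centred log2(IP/input) (± SE) of the YTHDC2 tile, GFRA1 and KDM3A under each processing setting, with the reported value in black. The YTHDC2 difference, on which the tile was picked, runs from -0.80 to -0.19. Its groups do not overlap, so leaving out 1 bull or taking 1 session could not turn its sign. The constant sign is therefore no support for it. The differences of GFRA1 and KDM3A fall on both sides of 0.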

How the data were processed

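Sperm DNA of 6 bulls was measured on 6 two-colour arrays, 1 per bull. Per the file headers, the deposited spot intensities come from Agilent Feature Extraction 10.7.3.1 after detrending and linear dye normalization; SF1 was extracted with the CGH protocol of that software and the other bulls with its ChIP protocol. IP DNA always had the same dye, so any dye bias of a probe sits in every array. The deposited log10 ratio divides the red (IP) by the green (input) signal. The deposited series table of log2 values matched it within 0.001 at 100% of 177439 probes (1 probe is missing), which settles scale and direction; its column medians of -0.04 to 0 show that it was not centred. Gene names stood in 3 of the 6 files, and probe sequences were identical in all.

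From the processed intensities log2(IP/input) was computed and centred on the array's own median of all probes but controls, with no loess or quantile step. Gene regions are means over at least 3 measured probes of one name (737), and runs join at least 3 measured probes whose starts lie at most 500 bases apart (9463). Tests used limma 3.58.1 in R 4.3.3 (lmFit, eBayes, 2-sided, Benjamini-Hochberg, threshold 0.05) over all probes, gene regions or runs: group alone; session with group; their interaction; and the mean of both group means against 0. The script was tested on simulated data. Files were read with data.table version 1.17.8 and pandas 2.3.3, and plots drawn with matplotlib 3.10.9. For names alone, the symbols were looked up in RefSeq genes of NDDB_SH_1, a buffalo assembly, which held 3 of 3. Members and gene lists were chosen with earlier results of these data known. The text names every member, the 3 gene regions most correlated with each, and up to 3 genes per list by unadjusted p, with PEG10 and other called or marker genes added after their values were seen. One gene of the lists is not reported here.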

Additional observations from a re-analysis of the deposited data

How the results depend on the processing

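No paired analysis was run because the labels pair no bulls. HF5 and SF5 have the same number but are separate animals by their labels. The YTHDC2 tile stayed below the array median and past the threshold in all 14 alternatives run (-0.89 to -0.32, limma adjusted p at most 0.0146), 1 of them added after seeing the data. These tests use the ratios on which the tile was picked and are not independent of that choice. The group difference of the tile, on which it was picked, moved to -0.19 with normexp correction and to -0.43 in the later session alone. Leaving out 1 bull gave -0.80 to -0.58, and could not turn the sign because the groups did not overlap. Its session difference turned to -0.11 with normexp and to -0.0069 when arrays were centred on the measured probes. The GFRA1 group difference turned to -0.15 with normexp, -0.11 with no filter on input and -0.37 in the later session alone, and leaving out 1 bull gave -0.15 to 0.28. Its session difference turned to 0.28 with the slide as a block (0.35 to -0.53 leaving out 1 bull). Its mean ratio passed with normexp (-0.33, limma adjusted p = 0.023), turned to 0.23 with no filter, and ranged from -0.46 to -0.24 leaving out 1 bull, passing without HF3. The KDM3A group difference turned to -0.0058 with normexp and -0.11 in the first session alone (-0.070 to 0.40 leaving out 1 bull). Its session difference turned to -0.77 with no filter (limma adjusted p = 0.0216; -0.055 to 0.54 leaving out 1 bull), and its mean ratio to -0.033 with normexp (-0.068 to 0.17 leaving out 1 bull). The causes of these changes were not tested. Requiring IP signal well above background too left too few probes for a value of any of the 3 genes. High-fertile minus subfertile calls over the array were 0 in limma in the reported fit (2036 probes at an unadjusted p under 0.05) and at most 34 probes and 4 gene regions, in the later session alone. Calls between sessions ranged from 0 to 31080 probes, 0 to 1599 gene regions and 224 to 4070 runs. In the reported fit they were 8941, 153 and 3502, and the 1599 were among 2791 gene regions with no filter on input. Calls were 0 probes without HF5 or without any 1 subfertile bull. With the slide as a block they were 0 probes, 0 gene regions and 224 runs. Calls against the median ranged from 1993 to 31777 probes, 3 to 286 gene regions and 1043 to 3532 runs, against 19596, 155 and 2697.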
